A study of Mus musculus with 8 samples.

Results

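The 10 genes Aen, Bax, Bbc3, Pmaip1, Perp, Fas, Eda2r, Tnfrsf10b, Trp53inp1 and Phlda3 are effectors of apoptosis that p53 is known to induce. They were taken by name from the 49585 genes of a table of read counts from whole mouse livers, and each was followed over 3 genotypes. All livers came from males kept on a high-fat, choline-deficient (HFCD) diet for 3 months from day 21 of age. LP+/+ livers (n = 3) carried no Cre by their labels (Alb-Cre0), so neither conditional allele was recombined, and replicates 1 and 2 were Trp53fl/+ whereas replicate 3 was Trp53wm-R245W/+. LPfl/+ livers (n = 2; Alb-CreTG, Trp53fl/+) had lost 1 of the 2 Trp53 alleles in the cells that Cre reached. LP245/+ livers (n = 3; Alb-CreTG, Trp53wm-R245W/+) expressed in these cells the missense mutant R245W, a change in the DNA-binding domain of p53, from 1 allele beside 1 wild-type (WT) allele. Alb-Cre is driven by the albumin promoter. The study places its recombination in hepatocytes and cholangiocytes, so that Trp53 stays unaltered elsewhere in the liver. The study's text also describes LP+/+ animals that carry Alb-Cre, and an effect of Cre itself cannot be told apart from the Trp53 alteration in either comparison with LP+/+.

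p53 is a transcription factor that binds DNA as a tetramer and switches on genes that arrest, repair or kill a stressed cell. Its apoptosis genes act at several steps. Death receptors at the cell surface (Fas, Tnfrsf10b, Eda2r) pass on signals from ligands of the tumor necrosis factor family, BH3-only proteins (Bbc3, also called Puma, and Pmaip1, also called Noxa) block the anti-apoptotic members of the BCL2 family, and the pore former Bax opens the outer mitochondrial membrane. Aen is a nuclease that helps to degrade DNA in the dying cell, Perp is a membrane protein of cell contacts, Trp53inp1 is a stress protein that increases p53 activity, and Phlda3 represses the survival kinase AKT. Because mutant and WT p53 form mixed tetramers, the comparison of LP245/+ with LPfl/+ asks whether R245W lowers the output of the remaining WT allele more than loss of an allele does.

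p53 binds to pairs of a 10-base unit, the p53 decamer, made of 3 purines, a C, 2 bases that are A or T, a G and 3 pyrimidines. Promoter windows from RefSeq (GRCm38.p6, 250 bases before to 50 bases after a transcription start) were matched for 6 of the 10 genes, namely Aen, Bax, Bbc3, Fas, Eda2r and Phlda3. An exact decamer, whose consensus reads the same on both strands, was found for 2 of these 6 genes (33.3%), Bax and Aen, compared with 9.55% of the 27025 genes with a window and 8.36% of all 32851 windows. For 3 of the 6, Bbc3, Fas and Phlda3, the first 40 bases after the RefSeq start were not found in any GENCODE M21 transcript of the gene. Of the p53 targets outside apoptosis used as a reference (Cdkn1a, Mdm2 and Ccng1), 3 of 3 held one. The sequences of Aen, Bax and Cdkn1a, in which capitals mark the decamer, are shown because Aen and Bax are the 2 members that hold it and Cdkn1a is the reference gene with the lowest LP245/+ level relative to LP+/+. Their LP245/+ means were at 60.3%, 79.4% and 13.3% of LP+/+, and the difference of Bax did not reach an unadjusted p below 0.05 (edgeR adjusted p = 0.840):
Aen: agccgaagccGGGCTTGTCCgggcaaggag
Bax: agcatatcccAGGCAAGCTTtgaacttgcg
Cdkn1a: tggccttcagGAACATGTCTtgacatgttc
The Aen stretch is chr7:78895927-78895956 on the plus strand, in the 5′ untranslated exon of a transcript, and its decamer starts at position 11 from one annotated start, counted as position 1, and at position -121 from another. That of Bax is chr7:45467080-45467109 on the minus strand, upstream of every annotated Bax transcript and in an intron of the overlapping gene model Gm45808, at position -201. Cdkn1a has this decamer at position -51 from one annotated start (chr17:29090918-29090947, plus strand), and a further decamer at position -73 from the same start. The window of its other annotated start held no decamer. A match is a description of the sequence and no evidence of binding, and a window without one may hold decamers with mismatches. The other reference genes with a decamer, Mdm2 and Ccng1, had LP245/+ means at 89.8% and 71.9% of LP+/+. For the members with a window but no decamer, Eda2r, Phlda3, Fas and Bbc3, these were 18.0%, 52.9%, 79.9% and 99.6%. A link between the decamer and these levels was not tested.

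Between 26304526 and 31370714 reads were counted per liver, and 3 counts, taken as the floor of detection, equal 0.0956 to 0.114 counts per 1000000 counts of the library (CPM). All 10 genes passed the filter on low counts, which left 16496 genes in the test. Eda2r, Tnfrsf10b and Phlda3 passed it only through LP+/+ or LPfl/+ livers, since fewer than 2 of the LP245/+ livers reached the 0.352 CPM it asks for, so these 3 genes could enter the test only if they were higher elsewhere. Library numbers fell into 2 series. The first held the 3 LP245/+ livers and LP+/+ replicates 2 and 3, and the second held both LPfl/+ livers and LP+/+ replicate 1. What the series stand for is not given in the labels. No series contains both LP245/+ and LPfl/+ livers, so the direct comparison between them is also one between series. Fits with a term for the series can separate them only through LP+/+, and rest on LP+/+ replicate 1, the 1 LP+/+ liver of the second series. The tissue matched its label, with the summed hepatocyte markers (Alb, Ttr, Apoa1, Hnf4a, Cyp2e1) at 94625 to 141467 CPM. In whole liver, fewer cells of a type and less RNA per cell cannot be told apart. Trp53 itself had 234, 269 and 215 counts in LP+/+ livers, 125 and 176 in LPfl/+ livers, and 306, 291 and 190 in LP245/+ livers. Both livers with a deleted allele lay below all LP+/+ livers (log2 fold change -0.58, SE 0.24; edgeR adjusted p = 0.718), and the R245W transcript is counted like the WT one, so Trp53 counts do not check the LP245/+ label.

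The expression of the genes per exon length covered a wide range (see the plot of levels per length). Over the 8 livers, Perp was the most abundant at 47.3 CPM per kilobase of exon, ahead of Trp53inp1 at 17.5 and Fas at 8.81. Bax (3.25), Aen (1.89) and Bbc3 (1.42 CPM per kilobase) formed the middle of the order. Phlda3 (0.281), Pmaip1 (0.231), Eda2r (0.135) and Tnfrsf10b (0.0744 CPM per kilobase) were the lowest, and these 4 genes had between 3 and 63 counts in a liver. The ranges over livers were separate between Perp and Trp53inp1, between Fas and Bax, and between Bbc3 and Phlda3, and overlapped for all other neighbours in this order. Variation between livers of a genotype was 7.84% for Aen and 8.78% for Fas (coefficient of variation of CPM), against 44.4% for Eda2r, 42.5% for Tnfrsf10b and 34.7% for Trp53inp1. Counting alone would give 1.75% for Trp53inp1 and 29.3% for Tnfrsf10b, so the spread of Trp53inp1 was far beyond counting error, whereas that of Pmaip1 (21.9%) and Phlda3 (29.4%) was close to the 23.5% and 28.1% that counting gives.

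**Figure D1:**
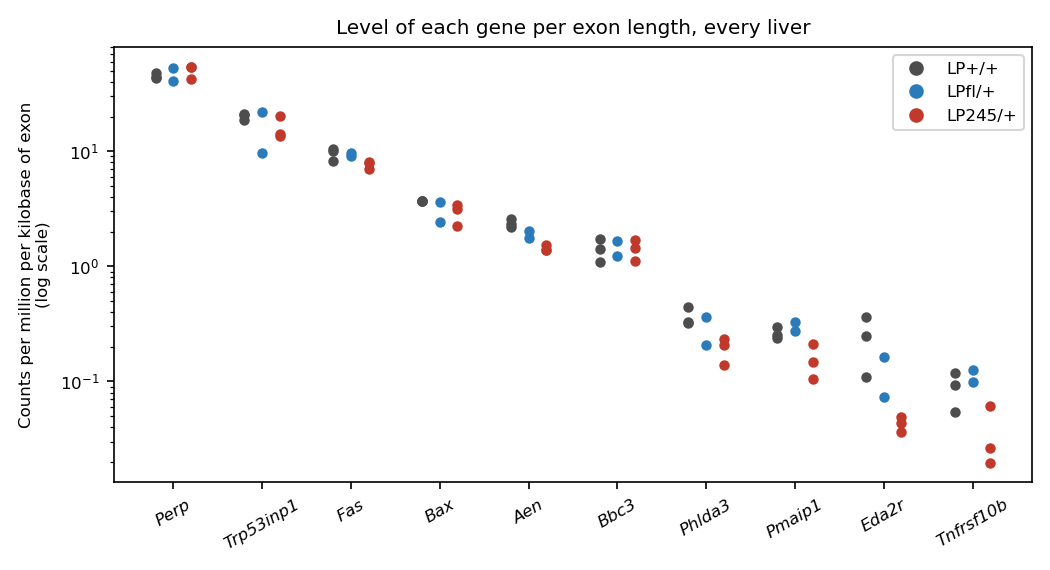
Level of each gene in every liver in CPM per kilobase of exon (log scale), ordered by the mean over 8 livers, with 1 point per liver coloured by genotype. Perp lies at the top (mean 47.3) and Tnfrsf10b at the bottom (mean 0.0744). The LP245/+ points of Pmaip1 and Eda2r lie below all others of their gene, and those of Phlda3 and Tnfrsf10b overlap with other genotypes. Phlda3, Eda2r and Tnfrsf10b passed the filter on low counts only through LP+/+ or LPfl/+ livers, which favours low LP245/+ points.

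Compared with LPfl/+ livers, LP245/+ livers had lower means for 8 of the 10 genes (49.2% of all genes tested were lower). An unadjusted p below 0.05 was reached by 5 genes, all lower in LP245/+ (Tnfrsf10b, Eda2r, Pmaip1, Aen and Fas), and by 0 genes that were higher. Of all genes tested, 4.44% had such a p and were lower, and 4.07% had one and were higher. For the same 5 genes all 3 LP245/+ livers were below both LPfl/+ livers, which was the case for 13.3% of all genes tested, and for 0 members they were above both, against 12.1% of all genes. Since Eda2r and Tnfrsf10b were in the test only through the other genotypes, the counts were also taken over the 7 members that LP245/+ livers alone bring past the filter. Of these, 3 (Pmaip1, Aen and Fas) were lower with an unadjusted p below 0.05, against 4.01% of the 15346 such genes, and the same 3 lay below both LPfl/+ livers, against 12.3%. By edgeR's quasi-likelihood test, 0 of the 10 genes passed the cutoff of the study (adjusted p of at most 0.05 with a log2 fold change of at least 1 in either direction), as did 0.0% of all genes, and the smallest adjusted p of any gene was 0.0818. DESeq2 also called 0 of them past this cutoff, against 0.362% of the 14915 genes it gave an adjusted p. It found an unadjusted p below 0.05 for 3 members, all lower, against 3.55% of all genes that were lower, and gave Tnfrsf10b no adjusted p because of its low mean count. The median log2 fold change of the 10 genes was -0.35, against 0.00 for all genes tested. It was -0.04 over these 7 members, -0.04 over the 6 members with 10 or more counts in every liver, and -0.57 with a term for the series. With only 2 LPfl/+ livers this comparison depended on each of them: the count of 5 genes became 1 without LPfl/+ replicate 2 and 3 without LPfl/+ replicate 1, of which Trp53inp1 was higher. A fit without either of these leaves a single LPfl/+ liver, which is assumed to vary like the livers of the other genotypes. The count was 2 without LP245/+ replicate 1 and 2 without LP245/+ replicate 2.

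Tnfrsf10b (chr14:69767472-69784411, GENCODE M21 on GRCm38), the mouse receptor for the death ligand TRAIL, showed the most negative difference in the fit without a term for the series. With that term, which rests on LP+/+ replicate 1, Eda2r (-2.91) was more negative. Tnfrsf10b had 19, 15 and 9 counts in LP+/+ livers, 19 and 15 in LPfl/+ livers, and 9, 4 and 3 in LP245/+ livers. The LP245/+ livers were thus below both LPfl/+ livers and at or below the lowest LP+/+ count, and 1 of them was at the floor of 3 counts. Mean CPM of the LP+/+ livers was 0.483 ± 0.175 (SD, n = 3), that of the LPfl/+ livers 0.608 ± 0.102 (SD, n = 2) and that of the LP245/+ livers 0.194 ± 0.120 (SD, n = 3). The log2 fold change of LP245/+ against LPfl/+ was -1.63 (SE 0.54, 95% interval -2.85 to -0.42; edgeR unadjusted p = 0.0136, adjusted p = 0.466), that is 0.322 times the LPfl/+ level. With a term for the library number series it was -0.95 (edgeR adjusted p = 0.995). Against LP+/+ it was -1.30 (SE 0.51; edgeR adjusted p = 0.806), with overlapping livers.

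Eda2r (chrX:97333840-97377216), a receptor of the same family that binds ectodysplasin A2, spread widely among the LP+/+ livers. Counts were 19, 63 and 44 in LP+/+ livers, 12 and 27 in LPfl/+ livers, and 7, 8 and 6 in LP245/+ livers. All LP245/+ livers were lower than every other liver, and the LPfl/+ livers overlapped with LP+/+ through LP+/+ replicate 1. The means of 1.41 ± 0.74 (SD, n = 3), 0.697 ± 0.378 (SD, n = 2) and 0.253 ± 0.036 CPM (SD, n = 3) put LPfl/+ at 49.5% and LP245/+ at 18.0% of the LP+/+ level. LP245/+ differed from LPfl/+ by a log2 fold change of -1.45 (SE 0.59, 95% interval -2.76 to -0.13; edgeR unadjusted p = 0.034, adjusted p = 0.544). This value became -0.75 without LPfl/+ replicate 2 (edgeR adjusted p = 0.941) and -2.91 with a term for the library number series (edgeR adjusted p = 0.365). Against LP+/+, the log2 fold change was -2.46 (SE 0.51, 95% interval -3.60 to -1.31; edgeR adjusted p = 0.795). With DESeq2 this last difference passed the cutoff (log2 fold change -2.49, adjusted p = 0.0309), and it also passed with edgeR when no filter on low counts was applied (adjusted p = 0.0192), while the other alternatives gave up to 0.998. The LP+/+ livers of the 2 series were farther apart for Eda2r than for the other members, since LP+/+ replicate 1 of the second series had 0.645 CPM and the 2 LP+/+ livers of the first series had a mean of 1.79 CPM. Within the first series LP245/+ lay below LP+/+ by a log2 ratio of -2.82, whereas within the second the 2 LPfl/+ livers were at a log2 ratio of 0.11 to the single LP+/+ liver.

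Fas (chr19:34290666-34327772), the receptor of Fas ligand, was the most abundant of the 3 receptors among the members, with 502, 638 and 628 counts in LP+/+ livers, 524 and 558 in LPfl/+ livers, and 390, 455 and 468 in LP245/+ livers. Every LP245/+ liver was below every liver of the other genotypes in counts and in CPM. Mean levels were 19.8 ± 2.39 (SD, n = 3), 19.3 ± 0.819 (SD, n = 2) and 15.8 ± 1.30 CPM (SD, n = 3). The difference between LP245/+ and LPfl/+ was a log2 fold change of -0.29 (SE 0.13, 95% interval -0.58 to -0.01; edgeR unadjusted p = 0.0466, adjusted p = 0.579), and became -0.60 with a term for the library number series (edgeR adjusted p = 0.665). That between LPfl/+ and LP+/+ was -0.03 (SE 0.13; edgeR adjusted p = 0.971).

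**Figure D2:**
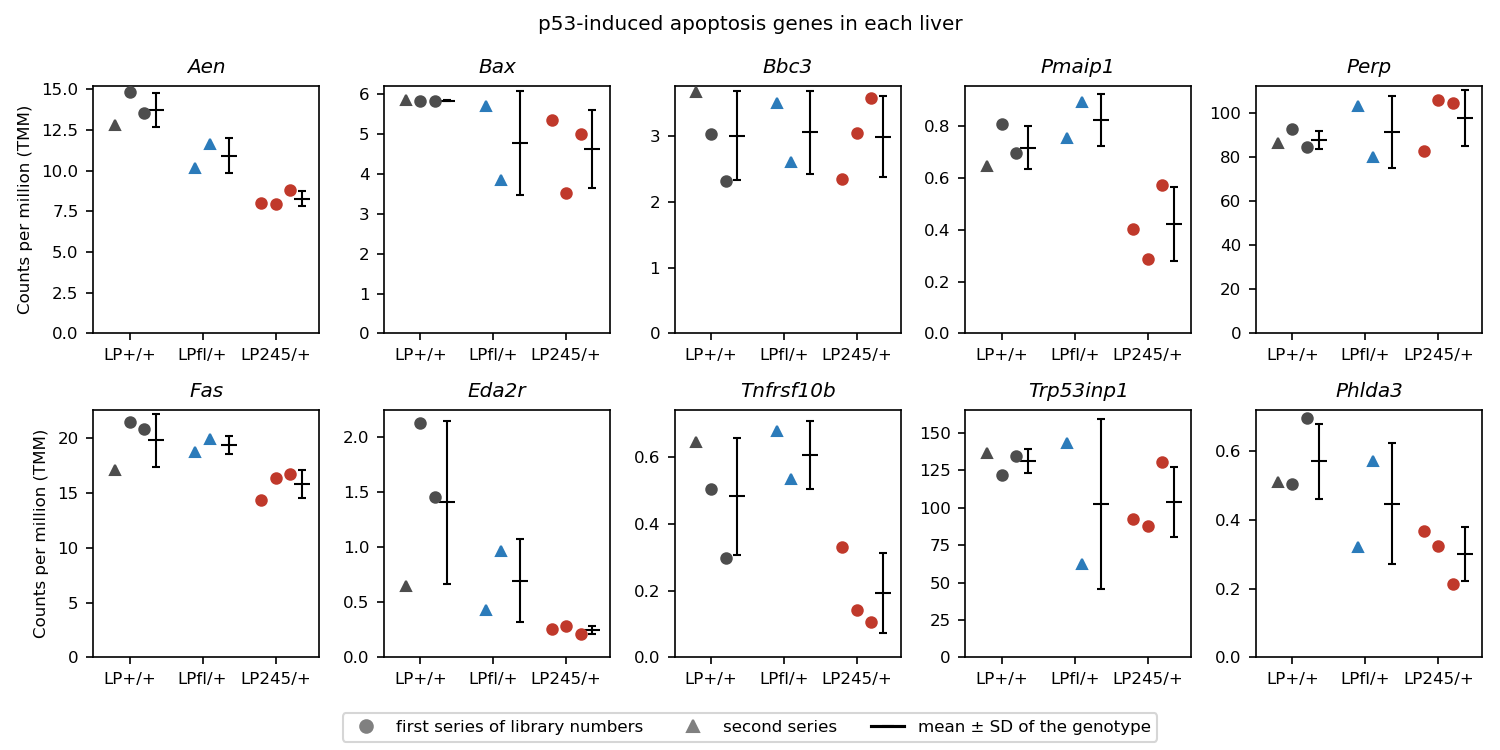
CPM (scaled by TMM) of each of the 10 genes in every liver, with circles for the first and triangles for the second series of library numbers and a bar for the mean ± SD of each genotype (n = 3, 2 and 3); every axis starts at 0. LP245/+ points of Aen, Fas, Eda2r and Pmaip1 lie below all points of the other genotypes, those of Bbc3 and Trp53inp1 lie among them, and 2 of the 3 LP245/+ points of Perp lie above them.

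The BH3-only genes Pmaip1, on chromosome 18, and Bbc3 (chr7:16308393-16318205) had different patterns over the livers. Pmaip1 had 19, 24 and 21 counts in LP+/+ livers, 21 and 25 in LPfl/+ livers, and 11, 8 and 16 in LP245/+ livers. LP245/+ livers were below all others, and the LPfl/+ livers were not lower than LP+/+ (0.822 ± 0.099 CPM, n = 2, against 0.716 ± 0.084, n = 3; SD). LP245/+, at 0.421 ± 0.143 CPM (SD, n = 3), differed from LPfl/+ by a log2 fold change of -0.96 (SE 0.37, 95% interval -1.78 to -0.13; edgeR unadjusted p = 0.0276, adjusted p = 0.532). Bbc3 had 108, 90 and 70 counts in LP+/+ livers, 98 and 73 in LPfl/+ livers, and 64, 85 and 100 in LP245/+ livers. The genotypes overlapped completely for Bbc3, with means of 3.01, 3.06 and 2.99 CPM in the same order. Its log2 fold change of LP245/+ against LPfl/+ was -0.03, and the 95% interval of -0.63 to 0.57 bounds a difference in either direction at less than 1 log2 unit. The sign of this value for Bbc3 turned to 0.43 with the series as a covariate.

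Bax (chr7:45461697-45466898), the only pore former among the members, had 172, 173 and 176 counts in LP+/+ livers, 159 and 108 in LPfl/+ livers, and 146, 98 and 140 in LP245/+ livers. In CPM, the LP+/+ livers were almost equal at 5.83 ± 0.009 (SD, n = 3), and both altered genotypes were lower and more spread, at 4.77 ± 1.30 (SD, n = 2) and 4.63 ± 0.978 (SD, n = 3). Counting alone would give a coefficient of variation of 8.26% for Bax, so the LP+/+ livers were closer than counting error allows for. Their SD is therefore no measure of the spread to be found in further livers. LP245/+ and LPfl/+ overlapped (log2 fold change -0.04, 95% interval -0.56 to 0.47; edgeR adjusted p = 0.986). All LPfl/+ and all LP245/+ livers lay below the LP+/+ livers, with log2 fold changes of -0.29 (SE 0.23; edgeR adjusted p = 0.818) and -0.33 (SE 0.20; edgeR adjusted p = 0.840). Over the alternatives the first of these ranged from -0.61 to -0.049 and the second from -0.46 to -0.17. With library totals in place of TMM, the LP+/+ livers were less alike (6.03, 5.70 and 5.61 CPM), and LPfl/+ replicate 1 at 5.73 CPM lay among them. An overlapping gene model on the same strand, Gm45808, shares 12.2% of the exon bases of Bax and had 0 counts in every liver.

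Aen (chr7:78895854-78911209) was the only member for which all 3 genotypes were separate. The share of all genes with 3 separate genotypes was not determined. From these livers the study had already placed Aen near the top of its ranking of genes that fall over the genotypes. The separation is therefore no independent result. Aen had 378, 441 and 409 counts in LP+/+ livers, 284 and 327 in LPfl/+ livers, and 219, 222 and 247 in LP245/+ livers. No liver lay within the range of another genotype, and means went from 13.7 ± 1.02 CPM (SD, n = 3) over 10.9 ± 1.06 (SD, n = 2) to 8.28 ± 0.481 (SD, n = 3), that is to 79.5% and 60.3% of LP+/+. LP245/+ against LPfl/+ gave a log2 fold change of -0.40 (SE 0.13, 95% interval -0.69 to -0.11; edgeR unadjusted p = 0.012, adjusted p = 0.453), and LPfl/+ against LP+/+ gave -0.33 (SE 0.13; edgeR unadjusted p = 0.029, adjusted p = 0.704). The difference between LP245/+ and LP+/+ was -0.73 (SE 0.12, 95% interval -0.99 to -0.47; edgeR unadjusted p = 0.0001, adjusted p = 0.569). DESeq2 gave an adjusted p of 0.0103 for this difference, the lowest of the alternatives (up to 0.998 when a liver was left out), and the fold change is below that of the cutoff. Within a series of library numbers, Aen lay below LP+/+ by a log2 ratio of -0.78 in LP245/+ (first series) and -0.23 in LPfl/+ (second series).

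In the remaining members, Phlda3 (chr1:135766119-135769136), Trp53inp1 (chr4:11156431-11174379) and Perp (chr10:18845020-18857073), LP245/+ livers overlapped with LPfl/+ livers. Phlda3 had 15, 15 and 21 counts in LP+/+ livers, 9 and 16 in LPfl/+ livers, and 10, 9 and 6 in LP245/+ livers. All LP245/+ livers of Phlda3 were below LP+/+ in CPM (log2 fold change -0.91, SE 0.39; edgeR unadjusted p = 0.0441, adjusted p = 0.831) but not below both LPfl/+ livers (-0.56, SE 0.45; edgeR adjusted p = 0.779). The latter value was -0.09 without LPfl/+ replicate 2, -0.91 without LPfl/+ replicate 1 and -0.37 without LP245/+ replicate 3. Trp53inp1 ranged from 1753 to 4067 counts, and its lowest and nearly its highest value belonged to LPfl/+ replicates 2 and 1, with 1753 and 3992 counts. Its log2 fold change of LP245/+ against LPfl/+ was 0.01 (95% interval -0.65 to 0.67) and became -0.46 without LPfl/+ replicate 2 and 0.73 without LPfl/+ replicate 1. Perp was the only member whose mean was higher in LP245/+ than in both other genotypes, at 97.6 ± 12.8 CPM (SD, n = 3) against 91.4 ± 16.3 (SD, n = 2) and 87.8 ± 4.19 (SD, n = 3). The livers of the 3 genotypes overlapped for Perp, and the log2 fold change against LPfl/+ was 0.09 (95% interval -0.24 to 0.42; edgeR adjusted p = 0.912).

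The comparison of LPfl/+ with LP+/+ asks what loss of an allele does by itself. The means of 6 of the 10 genes were lower in LPfl/+, against 50.2% of all genes. Aen was the 1 lower gene with an unadjusted p below 0.05, against 2.67% of all genes, and 0 higher genes had one, against 4.22%. Both LPfl/+ livers were below all LP+/+ livers for 2 genes, Aen and Bax, against 12.4% of all genes, and above them for 0, against 12.6%. By edgeR 0 members passed the cutoff (0.0% of all genes), and DESeq2 also called 0, against 0.0603% of the genes with an adjusted p. DESeq2 found an unadjusted p below 0.05 for 1 lower member, against 2.68% of all genes. The 1 gene became 2 without LP+/+ replicate 1 or LPfl/+ replicate 2 and 0 without LP+/+ replicate 2 or 3. The median log2 fold change was -0.16, against 0.00 for all genes tested, and became 0.00 without LPfl/+ replicate 2 and -0.03 over the 7 members that LP245/+ livers alone bring past the filter. In LP245/+ against LP+/+ livers, which uses the same LP245/+ livers as the comparison with LPfl/+ above, 9 of 10 genes were lower, against 49.4% of all genes. An unadjusted p below 0.05 was found for 6 of them (Aen, Pmaip1, Fas, Eda2r, Tnfrsf10b and Phlda3), against 2.38% of all genes that were lower, and for 0 higher genes, against 3.55%. Of the 7 members that LP245/+ livers alone bring past the filter, 3 (Aen, Pmaip1 and Fas) had such a p and were lower, against 2.27% of such genes, and 4 (Aen, Bax, Pmaip1 and Fas) lay below all LP+/+ livers, against 4.94%. All LP245/+ livers lay below all LP+/+ livers for 6 genes (Aen, Bax, Pmaip1, Fas, Eda2r and Phlda3), against 5.08% of all genes, and above them for 0, against 6.47%. The median log2 fold change was -0.53 (-0.33 over the 7 members), and 0 of the members passed the cutoff in edgeR, against 0.00606% of all genes, while 1 (Eda2r) passed it with DESeq2, against 0.0514% of the 19448 genes with an adjusted p. An unadjusted p below 0.05 was found by DESeq2 for 4 lower members, against 2.13% of all genes. The 6 genes became 2 without LP+/+ replicate 2, and 3 without LP+/+ replicate 1, without LP+/+ replicate 3 or without LP245/+ replicate 2.

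**Figure D3:**
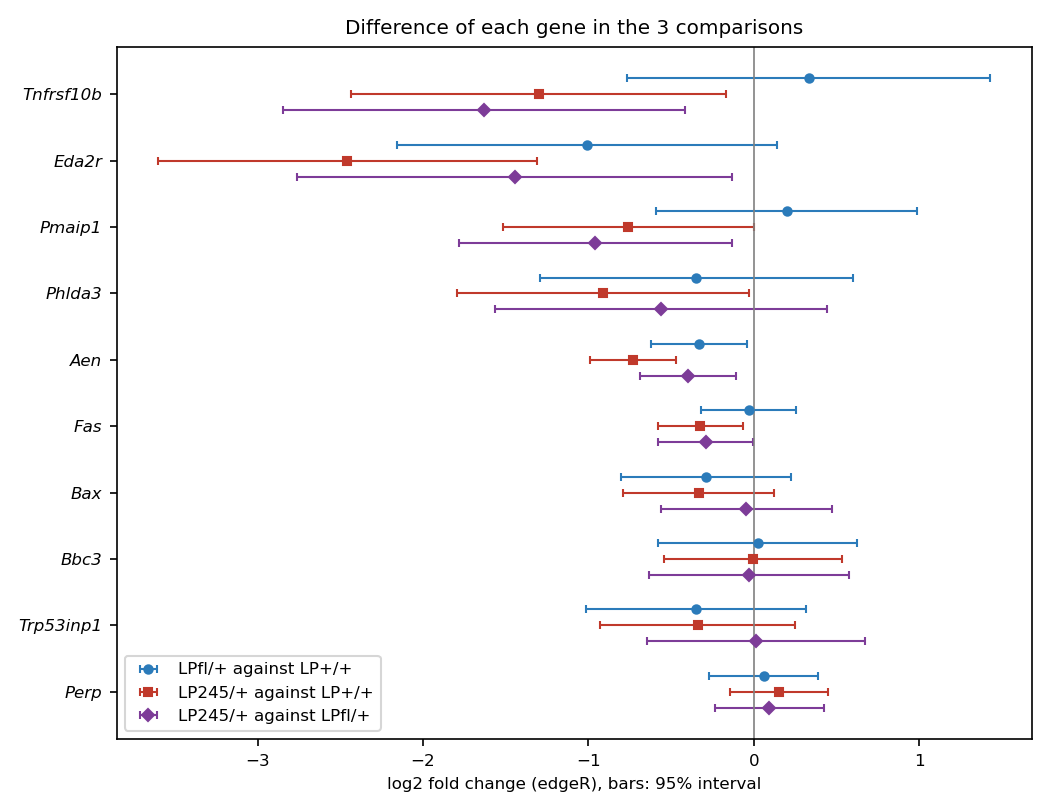
Log2 fold change of each of the 10 genes in the 3 comparisons between genotypes, fitted with edgeR, with bars for the 95% interval and genes ordered by LP245/+ against LPfl/+. The interval of LP245/+ against LPfl/+ lies below 0 for Tnfrsf10b, Eda2r, Pmaip1, Aen and Fas and includes 0 for the other 5 genes.

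The p53 targets outside apoptosis show how these differences compare. Cdkn1a, the gene of p21, which arrests the cell cycle, was counted 195, 144 and 195 times in LP+/+ livers, 74 and 99 times in LPfl/+ livers, and 14, 25 and 27 times in LP245/+ livers. Its genotypes did not overlap, and LP245/+ against LPfl/+ gave a log2 fold change of -1.96 (SE 0.29; edgeR adjusted p = 0.321, DESeq2 adjusted p = 2.23e-05), beyond the -1.63 of Tnfrsf10b. With a term for the library number series this value was -1.73, and the member Eda2r, at -2.91, then lay beyond Cdkn1a. That fit rests on LP+/+ replicate 1, in which Eda2r had 19 counts. Eda2r also passed the filter only through LP+/+ and LPfl/+ livers, so this order is not a result about Eda2r. Against LP+/+ Cdkn1a fell by 2.91 on the log2 scale (edgeR adjusted p = 0.0155), the 1 gene of all tested that passed the cutoff in this comparison. This call was lost without LP+/+ replicate 3 (adjusted p = 0.103), without LP245/+ replicate 2 (0.203) and with the replicate block (0.0596), with edgeR and log2 fold changes of -2.85, -3.00 and -2.93. The call was kept in the other alternatives, among them DESeq2 (DESeq2 adjusted p = 9.53e-18) and no filter (edgeR adjusted p = 1.17e-07). Mdm2, the ubiquitin ligase that degrades p53, was close to equal in LP245/+ and LPfl/+ (log2 fold change -0.11, 95% interval -0.41 to 0.20), and Ccng1, which encodes cyclin G1, had -0.22 (95% interval -0.53 to 0.09). Relative to LP+/+, the LP245/+ mean was at 71.9% for Ccng1, whose livers of these genotypes did not overlap, and at 89.8% for Mdm2. The difference between apoptosis genes and other targets was not tested.

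Of 46 other genes of apoptosis, 42 passed the filter, and Bcl2l10, Hrk, Fasl and Tnf did not. In LP245/+ against LPfl/+, 28 of the 42 were lower and 14 higher, with a median log2 fold change of -0.05. An unadjusted p below 0.05 was found for 4 that were lower, against 4.44% of all genes, and 1 that was higher, against 4.07%, and 0 passed the cutoff in edgeR. The BH3-only genes held 3 of the 4. Bmf, a sensor of detachment from the matrix, had 342, 173 and 120 counts in LP+/+ livers, 523 and 370 in LPfl/+ livers, and 168, 152 and 274 in LP245/+ livers, so that both LPfl/+ livers were above all others and LP+/+ replicate 1, of the same series of library numbers, was next. Its log2 fold change was -1.16 against LPfl/+ (SE 0.40; edgeR adjusted p = 0.480) and 0.00 against LP+/+. Bik gave -0.72 (SE 0.21; edgeR adjusted p = 0.407) and Bcl2l11, which encodes Bim, gave -0.45 (SE 0.17; edgeR adjusted p = 0.525). The fourth was Trp53i13, a p53-inducible gene, with -0.67 (SE 0.23; edgeR adjusted p = 0.484). Cflar, which encodes the caspase 8 inhibitor cFLIP, was the 1 higher gene. It had 3701, 5170 and 4342 counts in LP+/+ livers, 3443 and 3316 in LPfl/+ livers, and 4937, 4934 and 5155 in LP245/+ livers. All LP245/+ livers were above all others in CPM, at 181 ± 3.66 CPM in LP245/+ (SD, n = 3) against 121 ± 3.47 in LPfl/+ (SD, n = 2; log2 fold change 0.58, SE 0.14; edgeR adjusted p = 0.362, DESeq2 adjusted p = 0.0298). Other steps of the pathway showed 0 genes with an unadjusted p below 0.05, namely the anti-apoptotic BCL2 family (3 of 4 tested lower), the pore formers Bak1 and Bok (2 of 2 lower), the caspases and their activators (9 of 10 lower), the caspase inhibitors (3 of 3 higher) and the nuclear executioners (4 of 4 lower). In the remaining groups, 2 of 7 death ligands, receptors and adaptors and 4 of 7 further p53-linked genes were lower. Pmaip1 was thus lower in LP245/+ than in both LPfl/+ and LP+/+ livers, whereas Bmf and Bik were high in LPfl/+ and had close values in LP245/+ and LP+/+.

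**Figure D4:**
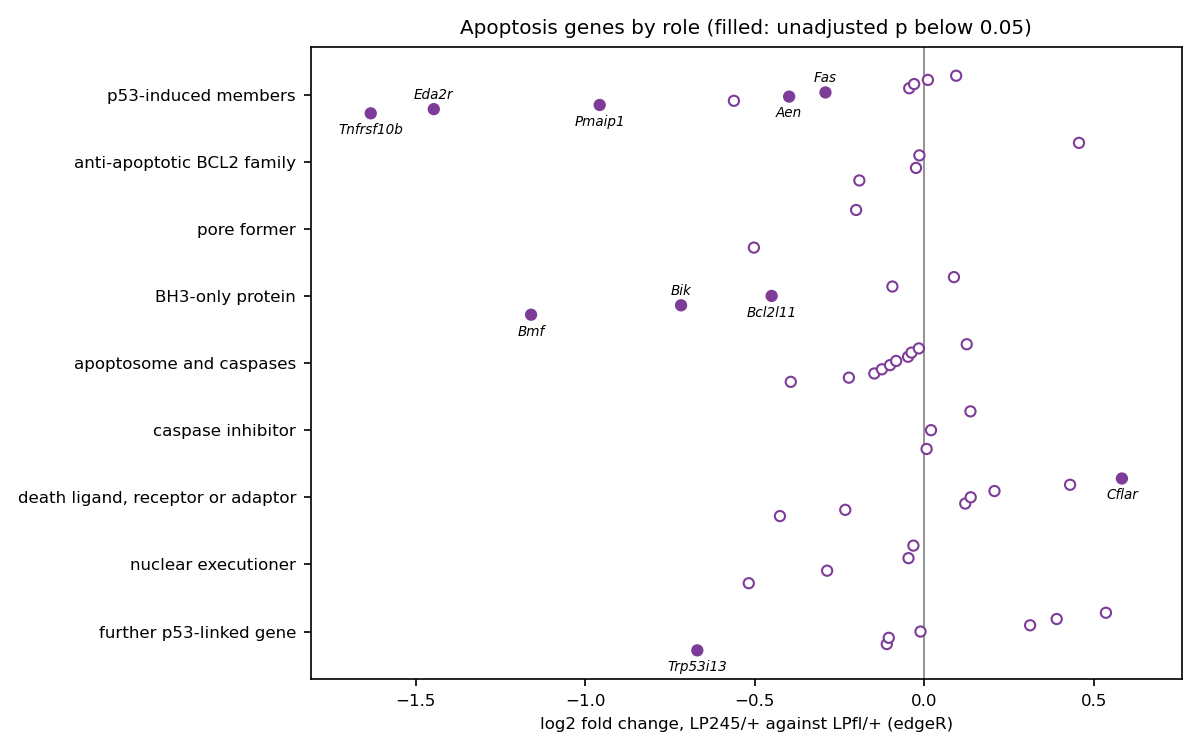
Log2 fold change of LP245/+ against LPfl/+ (edgeR) for the 10 p53-induced genes (top row) and for 42 other apoptosis genes grouped by role, 1 point per gene, filled where the unadjusted p is below 0.05. The p53-induced genes reach -1.63 (Tnfrsf10b), Bmf reaches -1.16 among the others, and Cflar lies highest at 0.58.

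In LPfl/+ against LP+/+ livers, 22 of the 42 other apoptosis genes were lower and 20 higher, with an unadjusted p below 0.05 for 1 lower gene, against 2.67% of all genes, and 2 higher genes, against 4.22%. These were Ei24 (log2 fold change -0.36) and Bik and Bmf (0.60 and 1.16). In LP245/+ against LP+/+ livers, 25 were lower and 17 higher, and Birc2 (0.25) and Cflar (0.29) had an unadjusted p below 0.05, both higher, against 3.55% of all genes (0 were lower, against 2.38%). Their medians were -0.01 and -0.04 in these comparisons.

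Markers of other cells in the liver were followed because genes such as Fas are known to be expressed in many cell types. Of 37 markers, 35 passed the filter, Ly6g was at 0 in all livers and Cd3e had 3 to 13 counts. In LP245/+ against LPfl/+, Vsig4 and Cd68 of Kupffer cells and macrophages (log2 fold changes -0.33 and -0.38) and S100a9 of neutrophils (-0.71) were lower, and Hnf4a of hepatocytes (0.39) and Reln of stellate cells (0.37) higher, with unadjusted p below 0.05 and edgeR adjusted p of at least 0.508. These are 3 lower and 2 higher of 35 markers, where 4.44% and 4.07% of all genes were lower and higher with such a p. In LPfl/+ against LP+/+, such a p was found for Cd79b of B cells (-0.92; 2.67% of all genes were lower with such a p) and S100a9 (0.69; 4.22% were higher), and in LP245/+ against LP+/+ for 0 markers (2.38% lower and 3.55% higher over all genes). Of the 35 markers, 13 were lower and 22 higher in LP245/+ than in LPfl/+. All 5 hepatocyte, all 5 endothelial and all 4 B cell markers tested were higher, as were 4 of 5 cholangiocyte and 3 of 5 stellate cell markers (stellate median log2 fold change 0.02), whereas 3 of 4 T and NK cell and 2 of 2 neutrophil markers were lower. All 5 Kupffer cell and macrophage markers were lower, with sums of 372 and 271 CPM in the LPfl/+ livers, 227, 271 and 264 CPM in the LP245/+ livers, and 261, 315 and 268 CPM in the LP+/+ livers, in which Clec4f was the most abundant. Sums of the T and NK cell markers were between 0.826 and 2.01 CPM. Of these, Nkg7 was the most abundant in the mean over the 8 livers, but Gzmb in the LP+/+ and LPfl/+ means. Sums were between 1.75 and 3.40 for B cells (Cd79b the most abundant) and between 1.29 and 2.61 for neutrophils (S100a9). Those of cholangiocytes were between 23.3 and 40.2 (Spp1). Endothelial sums were between 249.8 and 402 CPM (Stab2) and stellate cell sums between 405 and 503 CPM (Reln). The part of these cells in the differences of the death receptors and Pmaip1 was not tested.

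Across the 8 livers, the members did not vary as a single group. Of the 45 pairs among the 10 genes, 15 had a Pearson r of log2 CPM above 0.5 and 12 an r below 0, with a median of 0.32. These values are descriptions over livers that share genotype and series. Aen and Eda2r were the closest pair (r = 0.94), Fas and Phlda3 were also closest to Eda2r (0.88 and 0.84), and Pmaip1 was closest to Aen (0.78). Bax followed Trp53inp1 (0.80) and Bbc3 followed Perp (0.66), and Perp and Phlda3 were the most opposite pair (-0.77). Averaged as z-scores, the 10 genes gave 0.42, 0.73 and 0.40 in LP+/+ livers, 0.41 and -0.10 in LPfl/+ livers, and -0.77, -0.77 and -0.32 in LP245/+ livers. All 3 LP245/+ livers had lower averages than every other liver, but not over the 7 members that LP245/+ livers alone bring past the filter. Over these the averages were -0.91, -0.71 and 0.17 in LP245/+ livers and 0.59 and -0.43 in LPfl/+ livers, so that these genotypes overlapped, and 0.25 to 0.67 in LP+/+ livers. Outside the list, the genes most like the average of all 10 members were Ndufa8 (r = 0.96), Eif4a3, Zfp622, Rcsd1 and Tmem132a (each 0.94). That average includes Eda2r, Tnfrsf10b and Phlda3, which passed the filter only through LP+/+ or LPfl/+ livers.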

How the data were processed

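The authors deposited raw read counts per gene (whole numbers, no normalization) from stranded total RNA libraries, aligned to GRCm38 with STAR and summarized on a GENCODE annotation, per the labels and the study's methods; the release and the strand counted are not given in the sources used here. All 8 columns matched a sample, with 0 columns left over. Symbols and positions came from GENCODE M21 by Ensembl identifier (49326 of 49585; 259 without a symbol). Counts were tested with edgeR 4.0.16 (R 4.3.3; TMM, filterByExpr by genotype with a minimum count of 10, quasi-likelihood F test, all 8 livers in 1 fit), with Benjamini-Hochberg adjustment over 16496 genes. Intervals of 95% used the standard error and the moderated degrees of freedom, and cover the spread between these livers only. CPM values were scaled by TMM. Prior count was 2 for log2 CPM. DESeq2 1.42.0, other scalings and filters, 2 genotypes only, a replicate block, a covariate for the library series and leaving out each liver were alternatives. The procedure was tested on simulated data with changes larger than those of Aen and Fas. The changed genes had higher mean counts than Eda2r, Tnfrsf10b, Pmaip1 and Phlda3, so the simulation does not check the procedure for these 6 members. No 2 livers were near-identical (chi-square per gene of at least 19.9 over 28 pairs). The 10 members and all lists (46 apoptosis genes, 4 reference genes, 37 markers) were chosen with earlier results of these data known. All members were named. Other apoptosis genes were named if their unadjusted p was below 0.05, if they did not pass the filter, or, for Bak1 and Bok, as the other pore formers. The likest genes were those with the highest r over 8 livers. Perp, Pmaip1, Tnfrsf10b and Trp53inp1 had no promoter window.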

Additional observations from a re-analysis of the deposited data

How the results depend on the processing

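Members with an unadjusted p below 0.05 in LP245/+ against LPfl/+ (5) numbered 3 with DESeq2, 2 when every liver had to have 10 or more counts, 3 with the library number series as a covariate and 1 to 5 when each liver was left out. Lower genes with such a p were 4.44% of all genes, and 3.55%, 4.37% and 2.70% under the first 3 of these. In LPfl/+ against LP+/+ (1) they numbered 0 with library totals (1.29% of all genes), 2 with no filter (2.20%), 0 with the series (2.42%) and 0 to 2 with a liver left out. In LP245/+ against LP+/+ (6) they numbered 2 under the stricter filter (2.59%), 3 with the series (2.52%) and 2 to 5 with a liver left out. Over the 7 members that LP245/+ livers alone bring past the filter, an alternative chosen after seeing the data, the counts in the 3 comparisons were 3, 1 and 3 and the medians -0.045, -0.032 and -0.33. The stricter filter left 6 members to test, with medians of -0.040 and -0.33 in the 2 comparisons of LP245/+ (LPfl/+ first); the other medians that moved were -0.42 (library totals) and -0.57 (series) against LPfl/+ and -0.35 with only the 2 genotypes against LP+/+, where Tnfrsf10b was not tested and the other 9 had a median of -0.34 with all livers in 1 fit. With a liver left out, medians were -0.41 to -0.29, -0.21 to 0.0026 and -0.64 to -0.45 in LP245/+ against LPfl/+, LPfl/+ against LP+/+ and LP245/+ against LP+/+. In the last comparison 1 member (Eda2r) passed the cutoff with DESeq2 and with no filter. With library totals, 1 member (Aen) instead of 2 (Aen and Bax) had LPfl/+ livers below all LP+/+ livers.

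The labels give replicate numbers, but same-numbered livers did not deviate together (r between -0.08 and 0.03), so they share only a number. With it as a block, 5 members had an unadjusted p below 0.05 in LP245/+ against LPfl/+, 0 in LPfl/+ against LP+/+ and 4 in LP245/+ against LP+/+. The only signs that turned under the block were those of Trp53inp1 (-0.022 in LP245/+ against LPfl/+), Fas (0.016 in LPfl/+ against LP+/+) and Bbc3 (0.0082 in LP245/+ against LP+/+).

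Other signs turned as well. In LP245/+ against LPfl/+ they were those of Trp53inp1 with library totals (-0.054), Bbc3 with the series (0.43), and, over the fits with a liver left out, Bax (-0.29 to 0.27), Bbc3 (-0.22 to 0.20), Perp (-0.073 to 0.29) and Trp53inp1 (-0.46 to 0.73). In LPfl/+ against LP+/+ they were Fas with library totals (0.035); Bbc3 (-0.26), Fas (0.18), Eda2r (0.11) and Tnfrsf10b (-0.086) with the series, and also within the second series alone; and, with a liver left out, Fas (-0.13 to 0.019), Bbc3 (-0.22 to 0.21), Perp (-0.15 to 0.22) and Trp53inp1 (-1.08 to 0.11). In LP245/+ against LP+/+ it was Bbc3 with the series (0.16), in the first series alone (0.16) and with a liver left out (-0.17 to 0.16). The cause of these shifts was not tested. Depth limits Eda2r, Tnfrsf10b, Pmaip1 and Phlda3, which had 3 to 63 counts a liver. The floor of 3 counts covers counting error only.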
